A study of Mus musculus with 6 samples.

Results

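The core circadian clock genes were read here in the ileal mucosa of Duoxa-/- mice and their wild-type littermates. They are Arntl (also called Bmal1), Clock, Npas2, Cry1, Cry2, Per1, Per2 and Per3. Every probe set whose platform gene symbol is exactly one of these 8 names was taken, which gave 20 of the 45037 probe sets that are not controls and 8 of 18193 genes. Arntl had 2 probe sets, Clock 4, Npas2 2, Per2 3 and Per3 6, while Cry1, Cry2 and Per1 had 1 each. No filter on level was applied, so all 20 entered every test. Of these, 15 reached 6.58 in the mean of at least 1 genotype, the median of all values on the log2 scale, as did the brightest probe set of each of the 8 genes.

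The samples were 3 pools of Duoxa-/- mice and 3 pools of wild-type mice, all female, 3 months old and of 129S6 background. Duoxa-/- mice lack the maturation factors that the dual oxidases, hydrogen peroxide-releasing enzymes of the epithelial surface, need to leave the endoplasmic reticulum. Each of 3 cages, which are litters, gave 1 pool per genotype, and a pool mixed the RNA of 2 to 3 animals before it was read on 1 single-colour Affymetrix array. The animals are thus averaged within a pool, the spread between animals cannot be seen, and no source used here gives the hour at which tissue was taken. A cage and a litter cannot be told apart in this design.

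The circadian clock is a feedback loop of transcription that runs in nearly every mammalian cell. ARNTL pairs with CLOCK, or with the related NPAS2, and the pair binds E-box sequences and activates the Per and Cry genes. PER and CRY proteins then gather in the nucleus and repress that pair, so that their own transcripts fall again. A coupled loop of ROR activators and REV-ERB repressors acts on ROR elements of Arntl, Npas2 and Nfil3, while DBP, TEF and HLF activate, and NFIL3 represses, through D-boxes such as those of the Per genes. In peripheral tissues of the mouse, Arntl and Npas2 transcripts are therefore high when those of Per2, Per3 and Dbp are low, and the reverse holds at the opposite time of day. In the intestine the clock is set largely by feeding time.

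The regulatory letters of this loop are shown because the members fall into opposed groups in the results below. RefSeq windows of 250 bases before to 50 after a start site (build GRCm38.p6) were held for 7 of the 8 members, in 11 windows, and none was used for Per2. In the stretches below, written 5′ to 3′ on the strand of the gene, capitals mark the E-box CACGTG in Cry1 and Per1, the D-box TTATGNAA in Per1 and Per3, and the ROR element half-site AGGTCA in Arntl. The Per3 stretch covers 80 bases from position -220, counted from the start, at chr4:151044806-151044885, that of Per1 positions -180 to -1, at chr11:69098769-69098948, and that of Cry1 positions -100 to -1, at chr10:85185055-85185154. The Arntl stretch covers positions 17 to 46, inside the transcript, with the half-site at 32 to 37, at chr7:113207527-113207556. Per1 and Arntl are on the plus strand, and Per3 and Cry1 on the minus strand.
Per3: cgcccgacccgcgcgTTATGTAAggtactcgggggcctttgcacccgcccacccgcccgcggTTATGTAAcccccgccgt
Per1: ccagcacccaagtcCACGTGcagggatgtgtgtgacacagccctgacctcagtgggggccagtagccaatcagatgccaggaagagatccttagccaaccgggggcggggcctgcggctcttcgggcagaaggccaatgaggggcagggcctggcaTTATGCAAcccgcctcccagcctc
Cry1: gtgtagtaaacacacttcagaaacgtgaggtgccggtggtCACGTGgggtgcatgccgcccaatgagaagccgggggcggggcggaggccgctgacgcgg
Arntl: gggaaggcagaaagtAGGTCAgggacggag

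Both strands were searched, and the motifs do not overlap each other in these windows. Per3 held 2 D-boxes, which begin at positions -205 and -158, and Per1 held 1 at position -24. The E-box began at position -166 in Per1 and at position -60 in Cry1. Of all 32851 windows in the RefSeq table, 7.15% held the E-box, 3.38% the D-box and 16.3% the ROR half-site, against 2, 2 and 3 of the 11 member windows. The half-site matches in the member windows were those of Arntl, Clock and, outside the capitals above, Per1. These matches are descriptions of the letters and not measurements of binding.

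The arrays were alike as a whole, with medians between 6.55 and 6.60 (log2) and pairwise r across probe sets between 0.994 and 0.998. Duoxa2 read 5.90, 5.55 and 5.92 in the Duoxa-/- pools of cages 1, 2 and 3, against 8.81, 8.36 and 7.24 in the wild-type pools. Even this difference of -2.34 (SE 0.33) did not pass between genotypes (limma adjusted p = 0.794). A gene that does not pass here is therefore not shown to be unchanged. The ileal genes Fabp6 and Slc10a2, a bile acid binding protein and the ileal bile acid transporter, were bright in all 6 pools, and all 8 epithelial markers lay above the array median. Across all probe sets, 0 of 45037 (0%) passed limma at an adjusted p under 0.05 between genotypes, the smallest adjusted p being 0.794, while 2692 (5.98%) had an unadjusted p under 0.05. With cage as a block the numbers were 0 (0%) after adjustment and 2971 (6.6%) before it.

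No core clock gene passed the test between genotypes. By brightest probe set, the span between cages was wider than the difference between genotypes for Npas2, Per2, Per3, Arntl and Cry2, at 0.62 to 1.11 on the log2 scale. The same held for Per1 (span 0.44, difference -0.20) and Clock (0.23 and 0.04), whereas Cry1 differed more by genotype (0.36) than between cages (0.18). These are unlike measures, since over all probe sets the median span was 0.16 and the median absolute genotype difference 0.083. In cage 3, chosen after its values were seen, the brightest probe sets of Arntl, Clock and Npas2 were lower than in every pool of cages 1 and 2, and those of Cry2, Per2 and Per3 were higher than in every such pool. This opposed shift was present in both genotypes. No member passed the test between cages after adjustment over all probe sets.

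**Figure D1:**
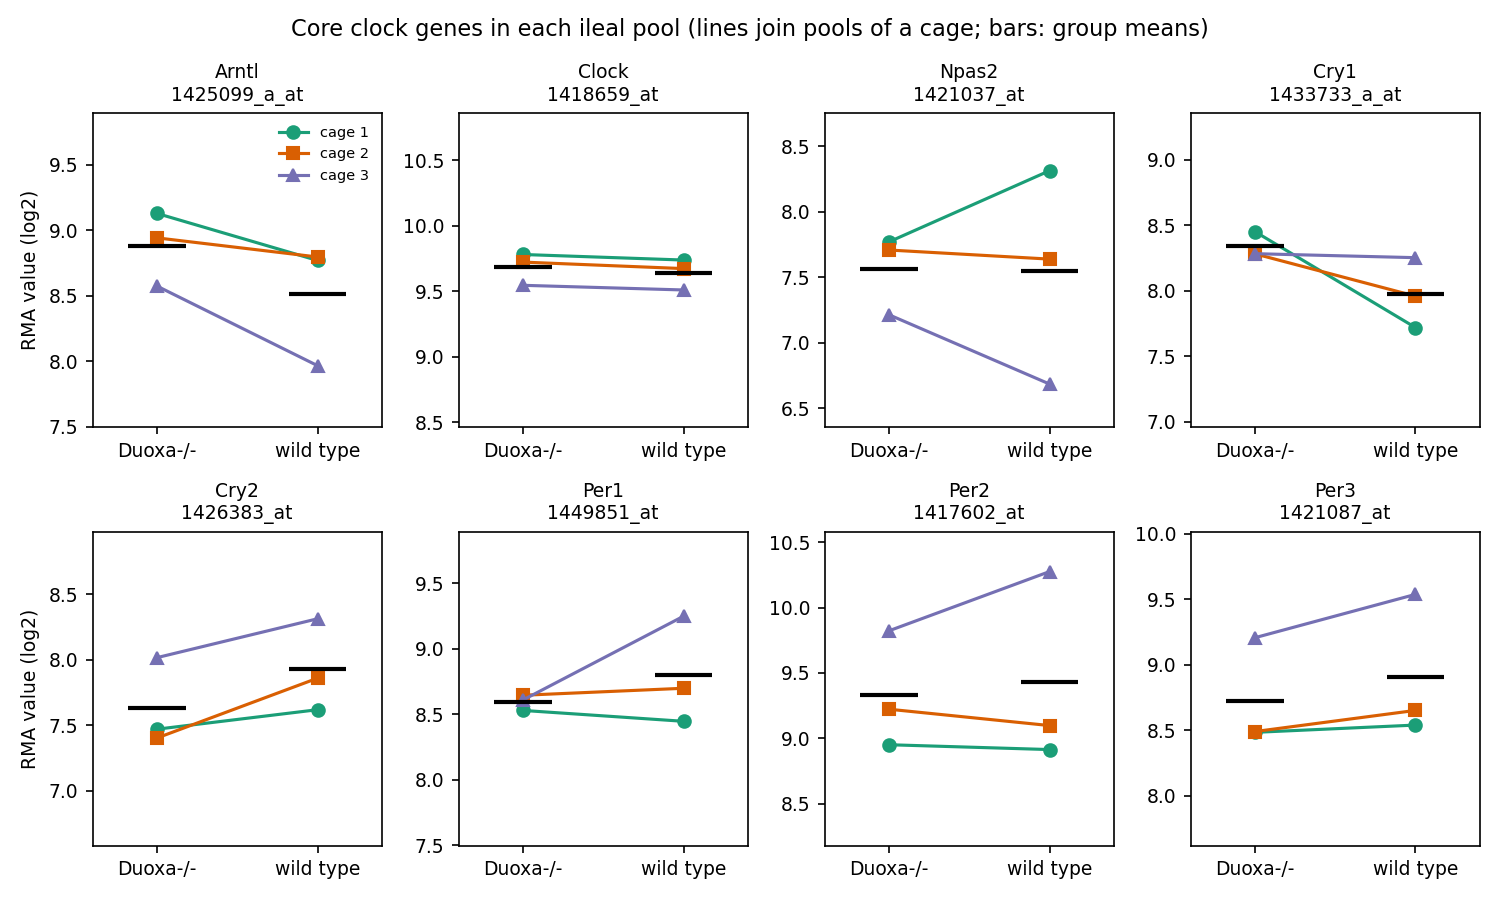
RMA values (log2) of the brightest probe set of each core clock gene in the Duoxa-/- pools (left) and the wild-type pools (right); each line joins the pools of a cage, black bars are group means, and every panel spans the same log2 range. The cage 3 line lies lowest for Arntl, Clock and Npas2 and highest for Cry2, Per2 and Per3, and the group means lie farthest apart for Arntl, Cry1 and Cry2, by 0.30 to 0.37.

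Arntl, the obligate activator of the loop, read 9.13, 8.94 and 8.57 in the Duoxa-/- pools of cages 1, 2 and 3, against 8.77, 8.80 and 7.97 in the wild-type pools (probe set 1425099_a_at). Its level was lowest in the wild-type pool of cage 3, next lowest in the Duoxa-/- pool of that cage, and the genotypes overlapped. The Duoxa-/- pool was the higher one in all 3 cages, by 0.36, 0.15 and 0.61. The group means were 8.88 ± 0.28 in Duoxa-/- and 8.51 ± 0.47 in wild type (SD, n = 3 each), a difference of 0.37 with a 95% interval of -0.15 to 0.89, which did not pass (limma adjusted p = 0.796). It was 0.10 once the wild-type pool from cage 3 was left out. The dimmer probe set of Arntl (1457740_at) read 6.52, 6.53 and 6.19 in Duoxa-/- pools, against 6.51, 6.24 and 5.73 in wild-type pools, and shared both the direction in every cage and the low values of cage 3. Its difference was 0.26, and 0.04 without that wild-type pool.

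Clock, the histone-acetylating partner of ARNTL, varied little. Its brightest probe set (1418659_at) read 9.78, 9.72 and 9.55 in the Duoxa-/- pools of cages 1, 2 and 3, against 9.74, 9.67 and 9.51 in the wild-type pools. Both cage 3 pools were the lowest, but the span between the highest and lowest cage mean was only 0.23 on the log2 scale. Between genotypes it differed by 0.04 (95% interval -0.18 to 0.27, limma adjusted p = 0.939). Of the other probe sets of Clock, 1418660_at and 1435775_at had cage means within 0.09 and 0.15 of each other and did not place cage 3 lowest. The fourth, 1439314_at, read 6.25, 6.69 and 6.63 in Duoxa-/- pools, against 6.99, 5.96 and 6.56 in wild-type pools, with differences of -0.74, 0.73 and 0.08 in the 3 cages.

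Npas2, which can replace CLOCK in the activating pair, had the second widest cage span of the 20 probe sets. It read 7.77, 7.71 and 7.21 in the Duoxa-/- pools of cages 1, 2 and 3, against 8.31, 7.64 and 6.68 in the wild-type pools (1421037_at). The wild-type pools alone spanned 1.63 on the log2 scale, the Duoxa-/- pools 0.56. The direction between genotypes turned from cage to cage, at -0.54, 0.07 and 0.53, so that the mean difference of 0.02 (95% interval -0.78 to 0.82) says little about any 1 cage. The second probe set of Npas2 (1421036_at) was dim and flat, with cage means within 0.09 of each other.

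Among the repressors, Cry1 was the only one of the 20 probe sets whose genotypes did not overlap. CRY1, a flavoprotein relative of photolyases, is the strongest repressor of the activating pair and acts late in the cycle. It read 8.45, 8.28 and 8.28 in the Duoxa-/- pools of cages 1, 2 and 3, against 7.72, 7.96 and 8.25 in the wild-type pools (1433733_a_at). All Duoxa-/- values lay above all wild-type values, in cage 3 by only 0.03. The means were 8.34 ± 0.10 in Duoxa-/- and 7.98 ± 0.27 in wild type (SD, n = 3 each), a difference of 0.36 (95% interval 0.06 to 0.67), or 1.29-fold, that did not pass (limma adjusted p = 0.794). The exact two-sided permutation test of the 6 pools gave p = 0.1, the smallest it can give with 3 against 3. Over all probe sets 11.6% did not overlap, so 1 of 20 is no larger a share. In cage 3 neither pool of Cry1 was the highest of all, and the Duoxa-/- pools of cages 2 and 3 read alike.

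Cry2, the second cryptochrome, ran the other way. It read 7.47, 7.40 and 8.02 in the Duoxa-/- pools of cages 1, 2 and 3, against 7.62, 7.86 and 8.31 in the wild-type pools (1426383_at). Within each cage the Duoxa-/- pool was the lower one, by -0.15, -0.46 and -0.30, while the cage 3 pool of each genotype was its highest. The mean difference was -0.30 (95% interval -0.77 to 0.16, limma adjusted p = 0.805), so the 2 cryptochromes had opposite signs in every cage without either passing. For Cry2 the difference was -0.11 once the wild-type pool from cage 3 was left out.

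Per1, the period gene that responds fastest to outside cues such as glucocorticoids, stood out in a single pool. It read 8.53, 8.64 and 8.61 in the Duoxa-/- pools of cages 1, 2 and 3, against 8.45, 8.70 and 9.25 in the wild-type pools (1449851_at). The wild-type pool of cage 3 was the high one, and the other 5 lay within 8.45 to 8.70. The mean difference was -0.20 (95% interval -0.61 to 0.20, limma adjusted p = 0.834), and it became 0.022 once the wild-type pool from cage 3 was left out.

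Per2, a core repressor that also responds to systemic signals, had the widest cage span of the members. Its brightest probe set (1417602_at) read 8.95, 9.22 and 9.82 in the Duoxa-/- pools of cages 1, 2 and 3, against 8.91, 9.10 and 10.27 in the wild-type pools. Both cage 3 pools were above the 4 others, and the highest and lowest cage means lay 1.11 apart, or 2.17-fold. The other Per2 probe sets followed, with 7.89, 8.27 and 8.67 in Duoxa-/- pools against 7.71, 8.11 and 8.91 in wild-type pools for 1457350_at, and with 6.39, 6.89 and 7.13 against 6.39, 6.65 and 7.31 for 1417603_at. In all 3 probe sets the Duoxa-/- pool was the higher one in cages 1 and 2 and the lower one in cage 3. The mean genotype differences were -0.10, 0.03 and 0.02, none past the test (limma adjusted p from 0.963 to 0.989), and the first of them became 0.33 once the wild-type pool from cage 3 was left out.

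Per3, a period gene that is dispensable for the rhythm itself but cycles strongly outside the brain, had 6 probe sets. The brightest (1421087_at) read 8.48, 8.49 and 9.21 in the Duoxa-/- pools of cages 1, 2 and 3, against 8.54, 8.65 and 9.54 in the wild-type pools. Both pools of cage 3 were above the others, and within each cage the Duoxa-/- pool was lower, by -0.06, -0.16 and -0.33. The mean difference was -0.18 (95% interval -0.82 to 0.45, limma adjusted p = 0.903), and it became 0.13 once the wild-type pool from cage 3 was left out.

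The other Per3 probe sets agreed on the cage but less on the genotype. In cage 3 the probe sets 1458176_at (8.18 in Duoxa-/- and 8.48 in wild type), 1442243_at (8.39 and 8.61) and 1441445_at (7.37 and 7.47) each had their 2 highest values. All 6 had a negative mean genotype difference, between -0.21 and -0.08, but only 3 of the 6 were lower in every cage. The probe sets 1421086_at and 1460662_at, which stayed between 5.16 and 5.62 in all pools, had cage means within 0.20 and 0.28 of each other and did not place both cage 3 pools above the rest.

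**Figure D2:**
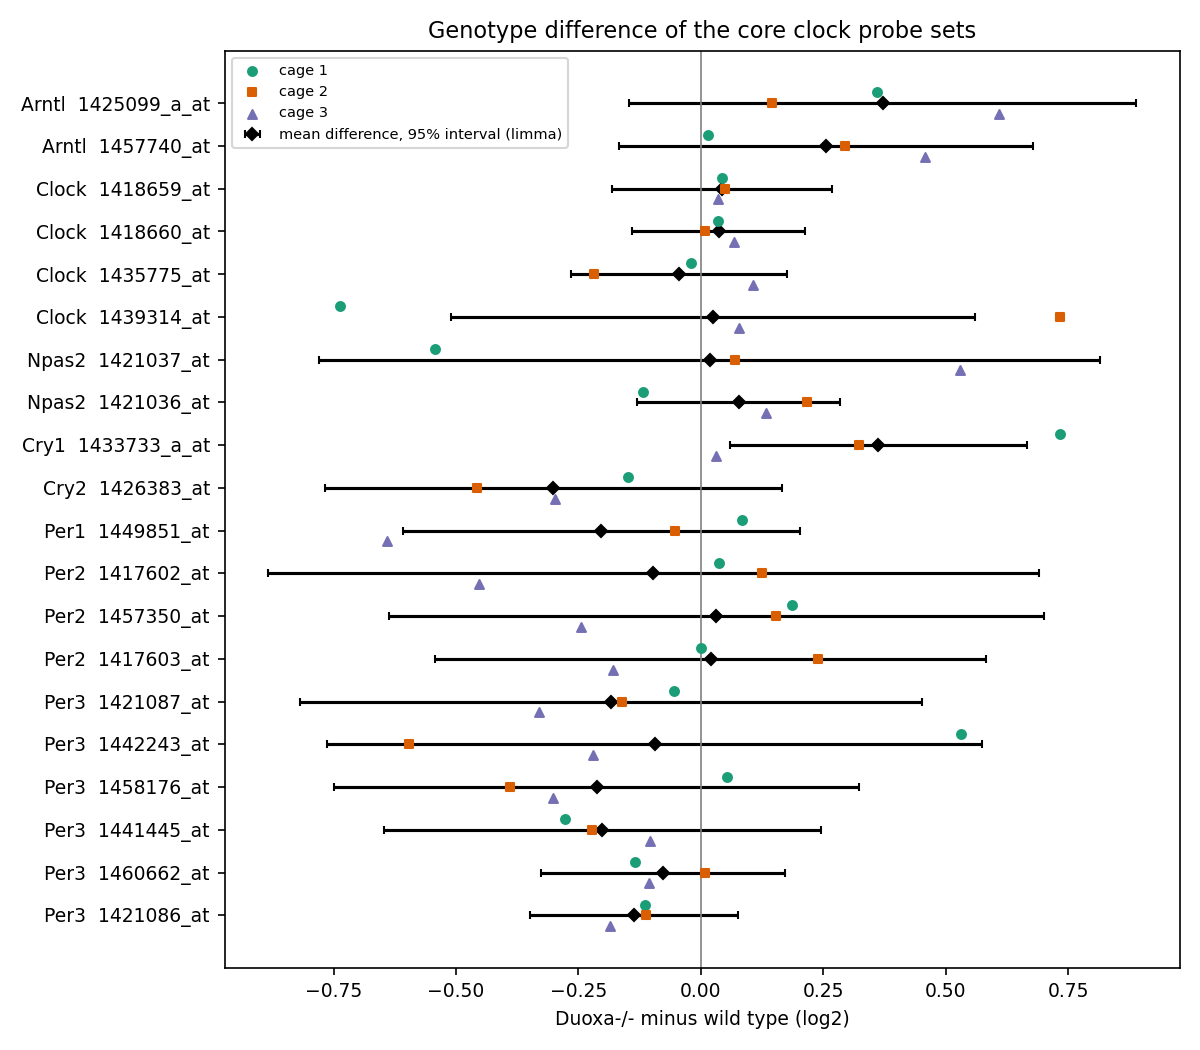
Duoxa-/- minus wild type (log2) for all 20 core clock probe sets; diamonds and bars are the mean difference with its 95% interval from limma, and coloured symbols are the differences within cages 1, 2 and 3. In this fit, which has no cage term, the interval of Cry1 alone lies clear of 0, and in the brightest probe sets of Per1, Per2 and Arntl the cage 3 symbol is the farthest from 0.

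Between genotypes, then, 0 of the 20 probe sets passed limma (background 0%), with adjusted p from 0.794 to 0.994, and 1 of 20, Cry1, had an unadjusted p under 0.05 (background 5.98%). With cage as a block, 0 of 20 passed (adjusted p from 0.740 to 0.987), and 4 of 20 had an unadjusted p under 0.05, against 6.6% of all probe sets. These were both of Arntl (limma unadjusted p = 0.0113 for the brighter and 0.0497 for the dimmer), Cry2 (0.016) and Cry1 (0.0324). Taken by sign, in 5 of 20 probe sets every cage had the higher value in its Duoxa-/- pool (15.3% of all probe sets), those of Arntl and Cry1 and 2 of Clock, and in 4 of 20 every cage had the lower value there (14.3%), those of Cry2 and 3 of Per3. With 1 probe set a gene, 3 of 8 genes were higher in all 3 cages (13.5% of all genes) and 2 of 8 lower (16.6%). The median difference over the 20 probe sets was -0.01, against 0.0013 over all probe sets. Probe sets of 1 gene read the same transcripts, so they are not independent counts.

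Between cages, 0 of the 20 probe sets passed limma's moderated F-test at an adjusted p under 0.05, where 1 of 45037 did (0.00222%), a probe set given no single gene symbol here (1425871_a_at). The lowest adjusted p values of the members were 0.321 for Per3 (1421087_at), 0.406 for Per2 (1417602_at), 0.609 for Cry2 and 0.661 for Arntl (1425099_a_at). An unadjusted p under 0.05 was found in 11 of 20 member probe sets, those of Arntl, Cry2 and Per2, 4 of Per3 and 1 of Npas2, against 5.55% of all probe sets. By gene it was found in 5 of 8, against 5.89% of all genes. Among the 45037 probe sets ordered by this p, the brightest of Per3 stood at place 29 and that of Per2 at place 43.

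The same contrast can be read from the pools directly. Both cage 3 pools were above the 4 others in 8 of 20 member probe sets (8.7% of all probe sets) and below them in 4 of 20 (7.63%). By gene these were 3 of 8 above (8.4% of all genes) and 3 of 8 below (9.16%). The median span between the highest and lowest cage mean was 0.58 over the members, against 0.16 over all probe sets. By brightest probe set, the spans of Per2, Npas2, Per3, Arntl and Cry2 exceeded those of 98.9% or more of all probe sets. That of Per1 exceeded 96.6%, and those of Clock and Cry1 exceeded 74.8% and 60.3%. Some dimmer probe sets stood lower, Npas2 1421036_at at 22.9% and Per3 1421086_at and 1460662_at at 64.6% and 85.0%.

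**Figure D3:**
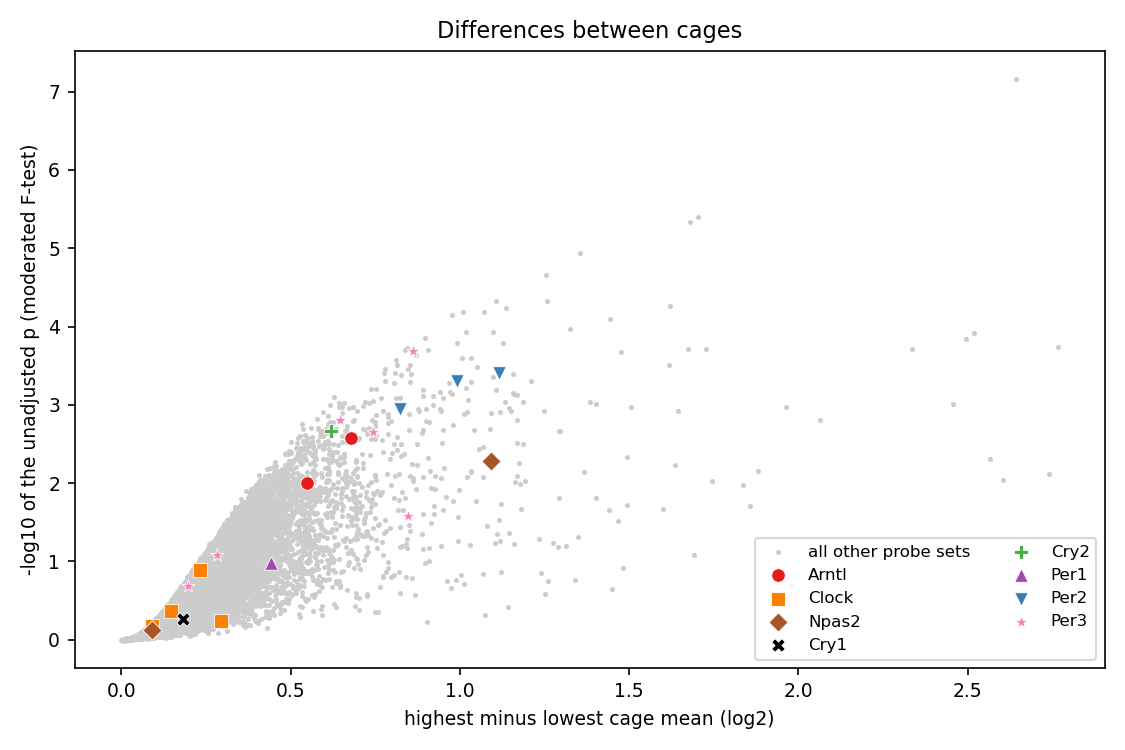
Highest minus lowest cage mean (log2, horizontal) against the -log10 of the unadjusted p of limma's moderated F-test between cages (vertical), with every other probe set in grey and the 20 core clock probe sets as coloured symbols by gene. The 3 Per2 symbols, 4 of 6 of Per3 and 1 of Npas2 lie to the right, at spans up to 1.11, and those of Clock and Cry1 lie with the bulk of the array.

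Averaged by role, the activators Arntl, Clock and Npas2 and the 5 repressors moved apart in cage 3. With each gene's brightest probe set centred on its own mean over the 6 pools, the mean of the repressors minus that of the activators was -0.44, -0.31 and 0.41 in the Duoxa-/- pools of cages 1, 2 and 3, against -0.62, -0.18 and 1.14 in the wild-type pools. The order of the cages was the same in both genotypes, and cage 3 alone had positive values. In wild type the repressors lay at -0.32, -0.11 and 0.56 and the activators at 0.30, 0.07 and -0.58. The Duoxa-/- pools covered a narrower span, with repressors at -0.19, -0.16 and 0.22 and activators at 0.26, 0.15 and -0.19. Not every repressor followed its average. Against the mean of cages 1 and 2, the Duoxa-/- pool of cage 3 differed by 0.58 for Cry2, 0.73 for Per2 and 0.72 for Per3. For Per1 it differed by only 0.02 and for Cry1 by -0.08, where the wild-type pool differed by 0.68 and 0.41.

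The wild-type pools also spread more than the Duoxa-/- pools in most members. The SD over the 3 wild-type pools was the larger one in 17 of 20 probe sets, against 60.9% of all probe sets, and the median SD was 0.26 in Duoxa-/- and 0.40 in wild type. By gene, 7 of 8 had the larger SD in wild type, Clock being the exception. For Per1 the SD was 0.06 in Duoxa-/- and 0.41 in wild type, and for Npas2 it was 0.30 in Duoxa-/- and 0.82 in wild type. Whether the spreads differ between genotypes was not tested. By brightest probe set, the cage 3 pool lay farthest from the wild-type mean among the wild-type pools for each of the 8 genes.

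Of 11 listed output factors of the clock 10 were measured, and 0 of 10 passed between genotypes in either direction. Between cages 0 of 10 passed, and 6 of 10 had an unadjusted p under 0.05 (5.89% of all genes). In 5 of 10, Dbp, Tef, Hlf, Nr1d2 and Ciart, both cage 3 pools were above the 4 others (8.4% of all genes), and in 1 of 10, Nfil3, both were below (9.16%). Bhlhe40, Bhlhe41, Rora and Nr1d1 did not separate cage 3 in this way, and Nr1d1 had its lowest cage mean there. Dbp, a D-box activator driven directly by ARNTL and CLOCK, read 10.27, 10.55 and 10.96 in the Duoxa-/- pools of cages 1, 2 and 3, against 10.37, 10.87 and 11.53 in the wild-type pools (1438211_s_at). Dbp was highest in cage 3 in both genotypes and lower in the Duoxa-/- pool of every cage (mean difference -0.33, limma adjusted p = 0.827). The D-box repressor Nfil3 went the opposite way, with 8.15, 7.85 and 7.04 in Duoxa-/- pools against 7.51, 7.74 and 6.92 in wild-type pools. Its difference was 0.29 (limma adjusted p = 0.852), and both cage 3 pools were the lowest.

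Hlf and Tef, the other D-box activators, were highest in both pools of cage 3. Hlf read 7.26, 7.49 and 8.18 in Duoxa-/- pools against 7.12, 7.63 and 8.17 in wild-type pools. Tef read 9.96, 10.06 and 10.60 against 10.12, 10.50 and 10.81. The REV-ERB genes, repressors of Arntl, were lower in the Duoxa-/- pool of every cage. Nr1d1 differed by -0.27, -0.23 and -0.18 in cages 1, 2 and 3 and Nr1d2 by -0.03, -0.25 and -0.34, with limma adjusted p of 0.794 and 0.810. Ciart, a repressor of the ARNTL and CLOCK pair, differed by -0.19, Bhlhe41 by -0.14, Bhlhe40 by -0.03 and Rora by 0.05. In all, 6 of 10 were lower in all 3 cages (16.6% of all genes), 1 of 10 was higher in all 3 (13.5%), and the median difference was -0.17, against -0.01 over all genes. That median was -0.02 once the wild-type pool from cage 3 was left out, when Dbp differed by -0.03, Tef by -0.10, Nfil3 by 0.06, Nr1d2 by -0.05 and Ciart by -0.02, while Nr1d1 differed by -0.30. Without the Duoxa-/- pool from cage 1 the median was -0.10, with Dbp at -0.17, Tef at -0.14, Ciart at -0.10 and Nfil3 at 0.05.

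**Figure D4:**
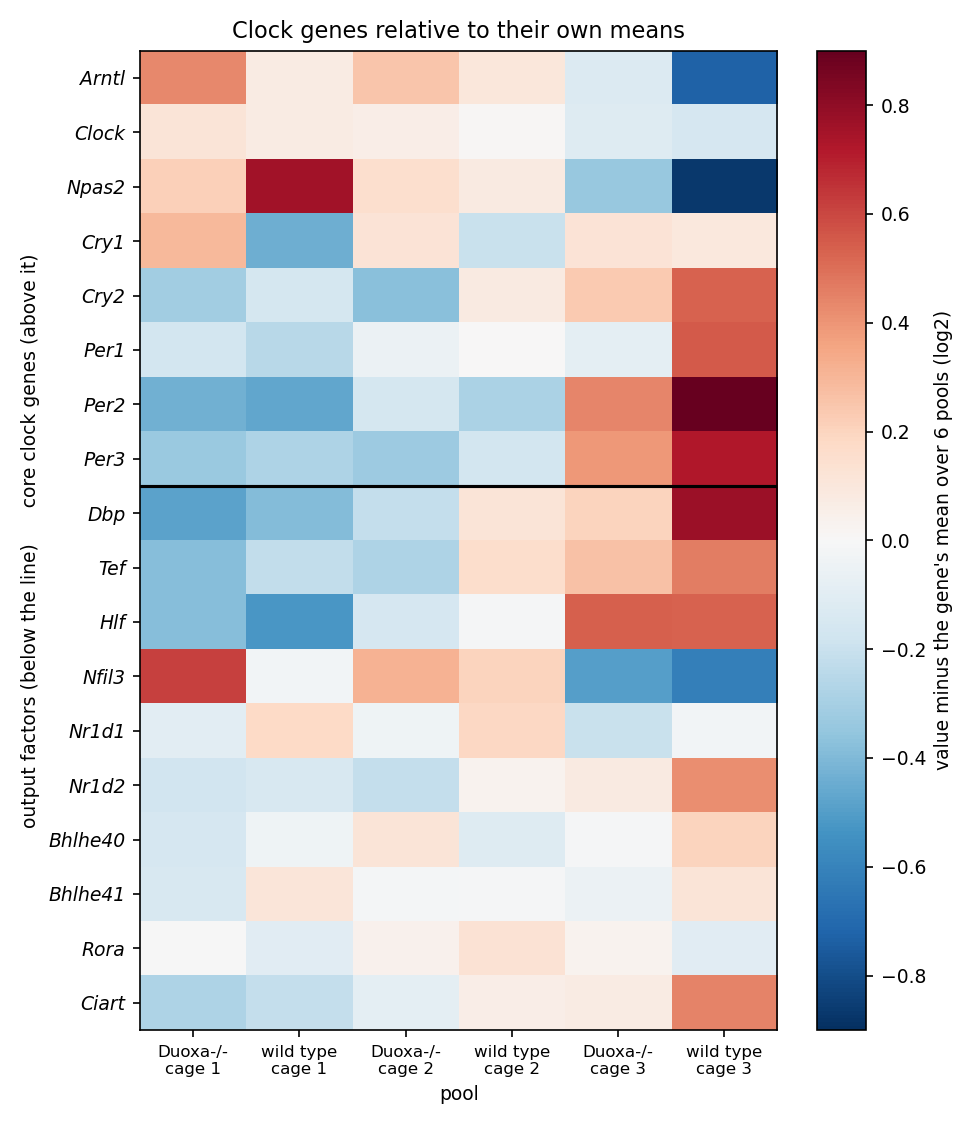
Value minus the gene's own mean over the 6 pools (log2, colour) for the 8 core clock genes (above the line) and 10 output factors (below it), 1 probe set each; columns run from cage 1 to cage 3 with the Duoxa-/- pool left of the wild-type pool of its cage. In the cage 3 columns Per2, Per3, Cry2, Dbp, Tef and Hlf are above their means while Arntl, Npas2 and Nfil3 are below theirs, and the wild-type pool shows it more strongly than the Duoxa-/- pool for Per2, Per3, Dbp, Arntl and Npas2.

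Regulators of clock protein stability and repression, such as casein kinases and F-box proteins, had a median cage span of 0.24, against 0.46 for the output factors. Of 12 listed, 10 were measured, 0 of 10 passed between genotypes in either direction, and their median difference was 0.07. Between cages 1 of 10, with a span of 0.58, had an unadjusted p under 0.05 in limma's F-test (5.89% of all genes). Both cage 3 pools were below the 4 others in 3 of 10 (9.16% of all genes) and above them in 1 of 10 (8.4%). Tipin (0.28) and its partner Timeless (0.19), proteins of the replication fork, and the casein kinase gene Csnk1d (0.16) had the largest differences, with limma adjusted p of 0.794, 0.810 and 0.795. Of 6 listed clock-controlled genes that cycle in many tissues, 5 were measured and 0 of 5 passed. The deubiquitinase gene Usp2 read 10.11, 10.16 and 10.28 in the Duoxa-/- pools of cages 1, 2 and 3, against 10.32, 10.57 and 10.69 in the wild-type pools. Its groups did not overlap, and its difference of -0.34 did not pass (limma adjusted p = 0.794). The leucine zipper gene Tsc22d3 (-0.34) and the mitotic inhibitor kinase Wee1 (-0.28) had the same sign in all 3 cages. The list's median of -0.28 was -0.14 when the cage 3 wild-type pool was dropped, as was the difference of Tsc22d3, and -0.16 when the cage 2 Duoxa-/- pool was dropped, as was that of Wee1.

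Genes through which feeding or stress can reach the clock were listed as well. Of 6 glucocorticoid-induced genes, 6 were measured and 0 passed, with a median difference of -0.18. Fkbp5, a co-chaperone of the glucocorticoid receptor, and Tsc22d3 were lower in the Duoxa-/- pool of every cage. In cage 3 they differed by -0.74 and -0.70, and the other genes of the list by -0.54 to -0.12. The 2 arose differently there. For Fkbp5 the Duoxa-/- pool was the lowest of all pools (10.53), and for Tsc22d3 the wild-type pool was the highest (11.60). Zbtb16, a zinc finger repressor, differed by -0.24 in the mean, with mixed signs. The list's median was -0.03 when the cage 3 wild-type pool was dropped, -0.09 with the cage 2 Duoxa-/- pool dropped, and -0.10 without that of cage 3 or the wild-type pool of cage 2. Fkbp5 differed by -0.07 without the Duoxa-/- pool of cage 3. Of 9 immediate early genes 9 were measured and 0 passed (median 0.10), with the transcription factor genes Egr1 at 0.82, Egr2 at 0.39 and Fos at 0.26. Cage 1 carried much of this, with Egr1 at 1.57, 0.56 and 0.34 and Egr2 at 1.17, -0.01 and 0.01 in cages 1, 2 and 3. When the Duoxa-/- pool of cage 1 was dropped, Egr1 differed by 0.37 and Egr2 by 0.19, Egr2 by 0.20 with the cage 1 wild-type pool dropped, and Fos by 0.13 with the one of cage 2 dropped. Of 7 genes induced by fasting and PPAR receptors 5 were measured and 0 passed (median -0.08), with the pyruvate dehydrogenase kinase Pdk4 at -0.42, the lipase inhibitor Angptl4 at -0.17 and the fatty acid importer Cpt1a at -0.08. The median of this list was 0.02, and Angptl4 differed by 0.04, when the cage 3 wild-type pool was dropped. The part of these inputs in the clock values was not tested.

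Genes whose pattern over the 6 pools was most like that of a member were found by the root mean square distance between values centred on their own means, over 11606 genes. For Arntl the nearest were Afap1l2 (distance 0.13 on the log2 scale), Flrt3, Sema6d, Adgre4 and C3ar1 (each 0.16), and Nfil3 stood at place 12. The fellow activators were farther off, Clock at place 405 and Npas2 at place 1175. For Per3 the nearest were Cfap57 (0.10), Fmo2 (0.12), Nat8 (0.12), Ephx2 (0.13) and Lamb3 (0.14). None of these 5 was a clock member or output factor. Per2 followed at place 6, Cry2 at place 9, Dbp at place 14, Hlf at place 17 and Tef at place 19. Per1 stood at place 115 and Cry1 at place 5713. Ephx2, a soluble epoxide hydrolase, read 9.71, 9.54 and 10.52 in the Duoxa-/- pools of cages 1, 2 and 3, against 9.83, 10.08 and 10.65 in the wild-type pools. These distances rest on 6 pools that share cages, and they describe likeness only.

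Markers of other cell types were read beside the cages, and 0 of them passed the test between cages. The 5 macrophage markers were all measured, and 4 of the 5 were lower in both cage 3 pools than in the 4 others (9.16% of all genes). However, 0 of 5 had an unadjusted cage p under 0.05 (5.89% of all genes). Their summed log2 level was 43.15 and 43.95 in the pools of cage 3 and 44.36 to 44.99 in the pools of cages 1 and 2. Of 5 fibroblast markers, all measured, 2 had an unadjusted cage p under 0.05 (5.89% of all genes) and 2 were lower in both cage 3 pools (9.16%). These were the collagens Col1a1, whose span of 1.17 exceeded that of every clock member, and Col3a1, with a span of 0.66, both singled out after their values were seen. Lum went the other way, with 10.87 in Duoxa-/- and 10.80 in wild type in cage 3, above the 4 other pools. Dcn (span 0.05) and Pdgfra (span 0.27) did not separate cage 3. Col1a1 read 8.86, 8.89 and 8.07 in the Duoxa-/- pools of cages 1, 2 and 3, against 9.63, 8.41 and 8.08 in the wild-type pools. The summed level of the fibroblast markers was 55.84 in Duoxa-/- and 55.41 in wild type in cage 3, against 55.79 to 58.11 in cages 1 and 2. Of 4 Paneth cell markers, 2 had an unadjusted cage p under 0.05 (5.89% of all genes), the protease Mmp7 (span 0.60) and the lectin Itln1 (span 0.40). The sum over the 4 was 53.65 and 54.35 in cage 3, against 54.94 to 56.13 in cages 1 and 2. The sum over the 8 epithelial markers was 104.82 and 104.99 in cage 3, within the 104.73 to 105.25 of cages 1 and 2. Of 6 ileal enterocyte markers, 3 (Fabp6, Fabp2 and Apoa1) were above the 4 others in both cage 3 pools (8.4% of all genes). An unadjusted cage p under 0.05 was found in 0 of these 6. Of 4 measured B and plasma cell markers 1 had such a p, with both cage 3 pools below the 4 others. Of 4 measured markers of enteric neurons and glia 1 had it, with both cage 3 pools above the others. It was found in 0 of 5 measured T cell and 0 of 3 measured pancreas markers. Smooth muscle markers were highest in the wild-type pool of cage 1, with a mean 0.50 above their average, where Npas2 also had its highest value. No marker was at 0, since RMA values have no 0, and in pooled tissue fewer cells of a type and less RNA per cell cannot be told apart. The part of cell composition in the clock values was not tested.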

How the data were processed

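Ileal RNA of 6 pools was labelled with biotin by in vitro transcription and hybridised to single-colour Affymetrix arrays, per the labels' protocols. The deposited values are log2 probe set summaries that the authors made by RMA (affy package), per the submitters' processing notes. No source used here gives its version or settings. RMA compresses differences of dim probe sets. No detection calls or raw intensities were used, and precision is limited by how many arrays there were.

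From 45101 rows, 64 control probe sets were removed. Symbols came from the platform annotation (34945 probe sets had 1 symbol, 932 several and 9160 none), and 0 changed when 34741 were matched to the RefSeq table of GRCm38.p6. Where 1 probe set stood for a gene, it was the one with the highest mean.

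All values here are on the log2 scale, differences are Duoxa-/- minus wild type, and SE and intervals are from limma. Genotypes were compared by limma 3.58.1 under R 4.3.3 without a cage term (lmFit, then eBayes, as a two-sided test), and cages by its moderated F-test, genotype being a term there. Adjustment was by Benjamini-Hochberg across the 45037 probe sets, at a threshold of 0.05. Fits were tested on simulated data. Tables and figures were made with Python 3.11.15, pandas 2.3.3 and matplotlib 3.10.9. The p-values measure the spread between pools.

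A shared cage pairs the pools by the series' design text. Within a cage, the deviations of both pools from their own group's mean had, across all probe sets, an r of -0.15, 0.07 and 0.29 in cages 1, 2 and 3. Across the member probe sets this r was 0.61, 0.11 and 0.91. Between different cages, Duoxa-/- of cage 1 with wild type of cage 2 gave 0.38 over all probe sets and 0.61 over the members. Duoxa-/- of cage 2 with wild type of cage 1 gave 0.60 over the members. In cages 1 and 2 this r thus does not set pools of 1 cage apart. Between cage 3 and the other cages it was -0.81 to -0.50 over the members. The printed intervals leave the pairing out. With cage as a block the SE was 0.11 rather than 0.23 for Arntl (1425099_a_at), 0.096 rather than 0.20 for Cry2 and 0.093 rather than 0.28 for Per3 (1421087_at). For Cry1 it was 0.14 rather than 0.13.

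The members and lists were chosen with earlier results of these data known. The text names all members and output factors and the 5 genes nearest to Arntl and Per3. Of each other list, cell type markers aside, it names the 3 genes with the largest absolute difference that reached the median level. Cell type markers were named by their cage values, after these were seen. The check genes Duoxa2, Fabp6 and Slc10a2 were named besides.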

Additional observations from a re-analysis of the deposited data

How the results depend on the processing

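Of 17 alternatives to the genotype fit, 0 brought a member past an adjusted p under 0.05, and of 11 alternatives to the cage fit 0 did. The block by cage, the replicate block, changed no call (0 probe sets). Leaving out 1 pool gave 0 to 1 probe sets between genotypes, the 1 arising once the cage 3 wild-type pool was dropped, and 1 to 16 between cages, where the count was also 2 with 1 probe set per gene, 3 with arrays centred on their medians and 0 without a genotype term. Member probe sets with an unadjusted cage p under 0.05 numbered 8 to 13 of 20 when 1 pool was left out, 8 being the count without the wild-type pool of cage 3.

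Leaving out each pool in turn moved these genotype differences through 0: Clock 1418659_at (-0.023 to 0.11), 1435775_at (-0.10 to 0.047) and 1439314_at (-0.25 to 0.27), Npas2 1421037_at (-0.41 to 0.40), Per1 (-0.38 to 0.022), Per2 1417602_at (-0.35 to 0.33), 1457350_at (-0.24 to 0.37) and 1417603_at (-0.17 to 0.28), and Per3 1421087_at (-0.42 to 0.13), 1442243_at (-0.45 to 0.16), 1458176_at (-0.44 to 0.025) and 1460662_at (-0.17 to 0.0088). Signs also turned without cage 1 for Per2 1457350_at (-0.046). Without cage 2 they turned for Clock 1435775_at (0.043) and 1439314_at (-0.33), Npas2 1421037_at (-0.0072), Per2 1457350_at (-0.029) and 1417603_at (-0.089), and Per3 1442243_at (0.16). Without cage 3 they turned for Clock 1439314_at (-0.0021), Npas2 1421037_at (-0.24), Per1 (0.015) and Per2 1417602_at (0.081). Quantile normalization turned Npas2 1421037_at (-0.012), and array weights turned Clock 1439314_at (-0.0032) and Per2 1457350_at (-0.15) and 1417603_at (-0.14). None of these differences had passed, and the cause was not tested. Arntl, Cry1 and Cry2 kept their signs in every alternative run for them, but not their sizes: with 1 pool left out, Arntl 1425099_a_at ranged from 0.099 to 0.52, 1457740_at from 0.043 to 0.43, Cry1 from 0.23 to 0.50 and Cry2 from -0.49 to -0.11. List medians moved as well, from -0.23 to -0.024 for the output factors, -0.27 to -0.028 for glucocorticoid-induced genes, -0.37 to -0.14 for clock-controlled genes, -0.30 to 0.02 for fasting genes, 0.06 to 0.19 for immediate early genes and -0.019 to 0.097 for the clock protein regulators.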
